A study of Mus musculus with 8 samples.

Results

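The NF-κB family genes described here comprise 10 genes chosen by name: the 5 Rel-domain subunits Nfkb1, Nfkb2, Rel, Rela and Relb, and the 5 inhibitors Nfkbia, Nfkbib, Nfkbie, Nfkbiz and Tnfaip3. All 10 were found among 26939 genes with bulk RNA-seq counts and all 10 passed the filter on low counts in every comparison. The cells were tumor-associated macrophages (TAMs) from tumors of EO771, a mouse breast cancer line, grown in the mammary fat pad of female mice aged 8 to 14 weeks and collected at day 21 after inoculation. The sorting gate took living cells that were positive for CD45, CD11b and F4/80 and negative for Gr-1. WT (C57BL/6J) and Unc93b1 3d/3d mice were each studied as controls and after αMARCO, which made 4 groups of 2 libraries. All 4 groups carried the same tumor. Unc93b1 3d/3d mice carry a mutated UNC93B1, the chaperone that takes the nucleic acid-sensing Toll-like receptors (TLRs) to the endosome, in all of their cells, and the labels describe them as lacking endosomal TLRs. The label of the second Unc93b1 3d/3d control library spells the genotype 3d/4d. αMARCO is a rat IgG1 antibody, clone ED31, to the scavenger receptor MARCO, injected intravenously at 100 µg on days 3, 6, 9 and 12. The labels call the control groups untreated and their libraries PBS, whereas the protocol names an isotype antibody, so that what the controls received is not settled. Each control library pooled the TAMs of 3 mice, and the pooling of the αMARCO libraries is not given in the sources used here.

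NF-κB is a family of dimeric transcription factors. In resting cells the dimers are held in the cytoplasm by IκB proteins, and signalling from TLRs or cytokine receptors leads to phosphorylation and destruction of the IκB, so that the dimer enters the nucleus. Several of its target genes encode its own subunits and inhibitors, so that the pathway restrains itself. In macrophages it drives inflammatory cytokine and chemokine genes. RNA-seq measures the transcripts of these genes, not the nuclear protein.

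The κB site is the short DNA motif that these dimers bind, and promoter sequences are shown here because several members changed together. RefSeq promoter windows (GRCm38.p6, 250 bases before to 50 after the start) were held for 7 of the 10 members. The 10-base κB consensus, searched on both strands with overlapping matches counted by their first base, was found in at least 1 window of 5 members, namely Nfkb2, Rel, Nfkbia, Nfkbie and Tnfaip3, and in none of those of Rela and Nfkbib. Of 27025 genes with a window, 5.14% held the consensus. The first of the 3 Nfkb2 windows held 3 matches, GGGAATTCCC, GGAATTCCCC and GGGGCTTTCC, of which the first 2 overlap. Tnfaip3 held GGGACACCCC at -125 and GGAAATCCCC at -12 from its start. The bases before the start are printed for 4 members, read 5′ to 3′ on the gene's own strand, with the consensus matches in capitals. The Nfkb2 stretch lies before the second of its 3 starts and shows 1 of the 2 matches of that window.
Nfkb2 (chr19:46305445-46305694, plus strand): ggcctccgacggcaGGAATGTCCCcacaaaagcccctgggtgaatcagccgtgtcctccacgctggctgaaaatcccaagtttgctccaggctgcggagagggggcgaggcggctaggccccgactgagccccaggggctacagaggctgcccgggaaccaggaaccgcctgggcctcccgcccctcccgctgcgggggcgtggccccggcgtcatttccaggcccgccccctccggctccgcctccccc
Rel (chr11:23770971-23771219, minus strand): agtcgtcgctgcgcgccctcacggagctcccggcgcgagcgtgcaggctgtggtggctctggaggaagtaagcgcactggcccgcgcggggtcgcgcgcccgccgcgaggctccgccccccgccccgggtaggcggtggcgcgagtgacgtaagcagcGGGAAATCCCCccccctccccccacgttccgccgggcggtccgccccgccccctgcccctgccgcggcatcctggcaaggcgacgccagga
Nfkbia (chr12:55492648-55492897, minus strand): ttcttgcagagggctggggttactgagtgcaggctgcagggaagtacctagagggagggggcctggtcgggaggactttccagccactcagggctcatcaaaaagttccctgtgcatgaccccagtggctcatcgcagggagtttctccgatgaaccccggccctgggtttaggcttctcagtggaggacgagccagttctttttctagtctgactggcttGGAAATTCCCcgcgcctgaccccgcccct
Nfkbie (chr17:45555450-45555699, plus strand): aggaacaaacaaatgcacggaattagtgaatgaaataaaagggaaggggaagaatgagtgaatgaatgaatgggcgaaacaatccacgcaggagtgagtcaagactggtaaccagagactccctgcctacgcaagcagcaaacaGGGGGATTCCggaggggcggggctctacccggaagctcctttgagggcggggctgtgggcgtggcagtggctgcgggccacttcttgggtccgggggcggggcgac
The matches for Rel overlap and begin 92 and 91 bases before the start, that for Nfkbia 29 bases before it and that for Nfkbie 106 bases before it. A match describes the letters only and is not evidence of binding in these cells. Of the 5 members with a match, Nfkb2, Rel, Nfkbia and Tnfaip3 were called between the genotypes in control TAMs and Nfkbie was not.

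Library totals ranged from 15182618 to 26411936 counted reads, so that 3 counts, taken as the detection limit, corresponded to 0.114 to 0.198 CPM, the count scaled to the library's total. The lowest count of any member in any library was 862, for Nfkbib. Unc93b1 3d/3d αMARCO replicate 2 stood apart: its median absolute log2 ratio over 16620 genes was 0.48 to 0.59 to each of the other 7 libraries, whereas the other 21 pairs of libraries lay at 0.15 to 0.43. Results that rest on it are given with and without it. Unc93b1 itself, whose 3d allele changes the protein and need not change the transcript, was measured at 848 and 965 CPM in WT control and 539 and 659.6 CPM in Unc93b1 3d/3d control TAMs. Its difference was called (log2 fold change 0.58 ± 0.12 SE, adjusted p = 0.0125). All 9 macrophage markers were detected in every library, at a summed level of 8980 to 13187 CPM.

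Levels between members were compared per length, as deposited FPKM. Nfkbia, which encodes IκBα, the inhibitor that is degraded and made again fastest, had the highest median over the 8 libraries, 151 FPKM, with a range of 94.1 to 336. It was followed by Nfkbiz (90.7, range 47.7 to 162), which encodes the nuclear IκBζ, and by Nfkbie (85.8, range 63.0 to 123), which encodes IκBε. These 3 inhibitors stood above every subunit by median. Among the subunits the order by median FPKM was Nfkb2 (45.4), Rela (40.5), Rel (24.6), Nfkb1 (18.3) and Relb (17.7), with Tnfaip3 at 28.4 and Nfkbib at 24.3. The ranges of every pair of neighbours in the order of the 10 overlapped over the 8 libraries. Nfkbia held the first rank in each of the 4 groups by group mean, whereas Nfkbiz came before Nfkbie in both WT groups and after it in both Unc93b1 3d/3d groups.

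**Figure D1:**
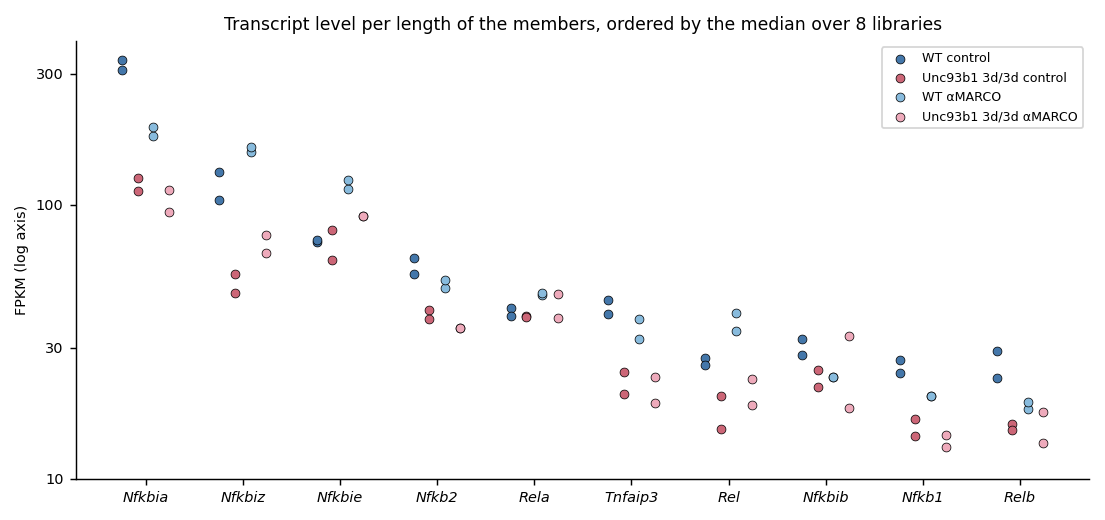
Deposited FPKM (log axis) of each member in each of the 8 libraries, members ordered by their median and points coloured by group (2 libraries each). Nfkbia spans 94.1 to 336 FPKM and holds the first place, while Rela spans only 38.5 to 47.5.

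In control TAMs the comparison of WT with Unc93b1 3d/3d asked how the loss of endosomal TLR function bore on these genes in the tumor. The transcripts of 7 of the 10 members were called higher in WT, and none was called lower, where a gene was called if its adjusted p was at most 0.05 and its log2 fold change was 0.5 or more in size. Of 15600 genes tested, 13.0% were called in either direction and 6.58% were called higher. The median log2 fold change was 0.67 over the 10 members and 0.00 over all genes tested. By counts the 7 were 4 of the 5 subunits and 3 of the 5 inhibitors.

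Nfkb1 encodes p105, the precursor of the p50 subunit, and was measured at 333 and 297 CPM in WT control TAMs, against 199 and 174 CPM in their Unc93b1 3d/3d counterparts. Its log2 fold change of WT over Unc93b1 3d/3d was 0.74 ± 0.11 (SE, adjusted p = 0.00268). Nfkb2, which encodes p100, the precursor of p52, was at 213 and 187 CPM in WT and 135 and 126 CPM in Unc93b1 3d/3d control TAMs. The groups of both precursor genes were thus apart in every library, and Nfkb2 differed by 0.60 ± 0.10 (adjusted p = 0.00505). Relb, the partner of p52 in the noncanonical pathway, had 115 and 91.7 CPM in WT against 61.3 and 58.8 CPM in Unc93b1 3d/3d libraries. It had the largest estimate among the subunits, 0.77 ± 0.12 (adjusted p = 0.00322). Rel encodes c-Rel, a subunit prominent in lymphocytes and in Il12b induction by macrophages, and was at 208 and 197 CPM in WT and 149 and 114 CPM in Unc93b1 3d/3d. The Rel difference was 0.61 ± 0.13 (adjusted p = 0.0153), and without Unc93b1 3d/3d control replicate 2 it was 0.42 (adjusted p = 0.0387), under the fold threshold.

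Rela, the p65 subunit that carries most canonical transcription, was at 115 and 108 CPM in WT and 106 and 106 CPM in Unc93b1 3d/3d control TAMs. Although the WT libraries lay above the others, the gap was small, and the log2 fold change was 0.06 ± 0.09 (adjusted p = 0.704). Rela lies 1.69 Mb from Unc93b1 on chromosome 19 (Rela at chr19:5637483-5648130, Unc93b1 ending at 3949340, GRCm38).

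Nfkbia had the largest difference of the 10. It was at 549 and 507 CPM in WT control and 201 and 181 CPM in Unc93b1 3d/3d control TAMs, which is a difference on the log2 scale of 1.45 ± 0.10, or 2.73-fold (adjusted p = 5.61e-05). Nfkbiz followed, at 529.6 and 672 CPM in WT against 279.5 and 241 CPM in Unc93b1 3d/3d, and the change was 1.19 ± 0.14, or 2.28-fold (adjusted p = 0.000886). IκBζ, its product, is a nuclear co-activator of secondary response genes as well as an IκB by structure. Tnfaip3 encodes A20, a ubiquitin-editing enzyme that ends TLR and TNF receptor signalling. It was at 292 and 329.7 CPM in WT and 176 and 149 CPM in Unc93b1 3d/3d, a change of 0.92 ± 0.12 (adjusted p = 0.00122). For each of these 3 inhibitors the lower WT library exceeded the higher Unc93b1 3d/3d library.

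The other 2 inhibitors were not called. Nfkbib, which encodes IκBβ, was at 71.4 and 62.2 CPM in WT and 54.1 and 47.1 CPM in Unc93b1 3d/3d, and its change of 0.38 ± 0.12 (adjusted p = 0.0463) fell under the fold threshold. Without WT control replicate 1 the adjusted p of Nfkbib was 0.183, and without Unc93b1 3d/3d control replicate 2 it was 0.192. With Nfkbib, 8 members had an adjusted p of at most 0.05 at any fold change, against 18.8% of all genes tested. Nfkbie was at 179 and 183 CPM in WT and 195 and 153.5 CPM in Unc93b1 3d/3d, so that its groups overlapped, and the change was 0.04 ± 0.12 (adjusted p = 0.852). Without overlap and with WT higher stood 9 members, and 31.9% of the 16620 genes tested over all libraries did the same.

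**Figure D2:**
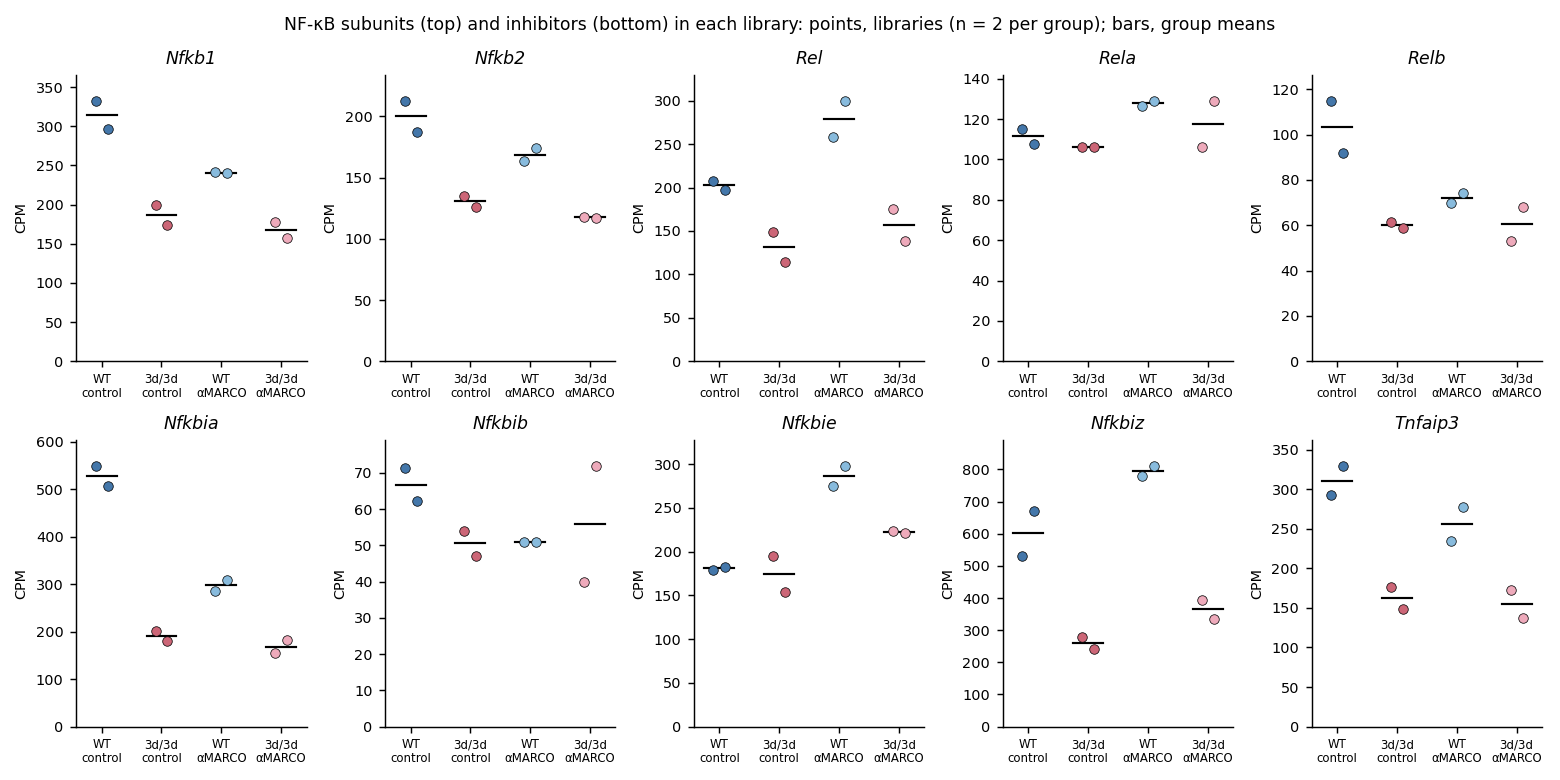
CPM of each member (panels, subunits in the upper row and inhibitors in the lower row, axes from 0) in each library (points) with the group mean (bar), 2 libraries per group. Nfkbia falls from 549 and 507 CPM in WT control to between 154 and 201 CPM in the 4 Unc93b1 3d/3d libraries, while Rela stays between 106 and 129 CPM throughout.

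The control call depended on which libraries gave the estimate of spread. With all 8 libraries in 1 model, 4 members were called higher, against 1.5% of genes, and Nfkb2 (adjusted p = 0.0709), Rel (0.171) and Relb (0.0681) lost the call at nearly the same estimates. With 7 libraries in that model, Unc93b1 3d/3d αMARCO replicate 2 left out, all 7 were called, against 7.3% of genes called higher, an alternative chosen after seeing the data.

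The proportions between members also moved, as given by the deposited FPKM. In control TAMs the ratio of Nfkbia to Rela was 8.04 and 7.94 for WT, against 3.20 and 2.88 for Unc93b1 3d/3d. With αMARCO it was 3.80 and 4.05 in WT and 2.44 and 2.39 in Unc93b1 3d/3d TAMs. WT control therefore stood apart from the other 6 libraries on this ratio. Rela made up 22.1% and 23.2% of the summed FPKM of the 5 subunits in WT control and 29.5% and 31.9% in Unc93b1 3d/3d control TAMs. The share of Rel was 20.5% and 22.4% in WT αMARCO libraries, and it lay between 12.5% and 18.5% in the other 6. These shares of transcripts were not tested and say nothing of the dimers formed.

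**Figure D3:**
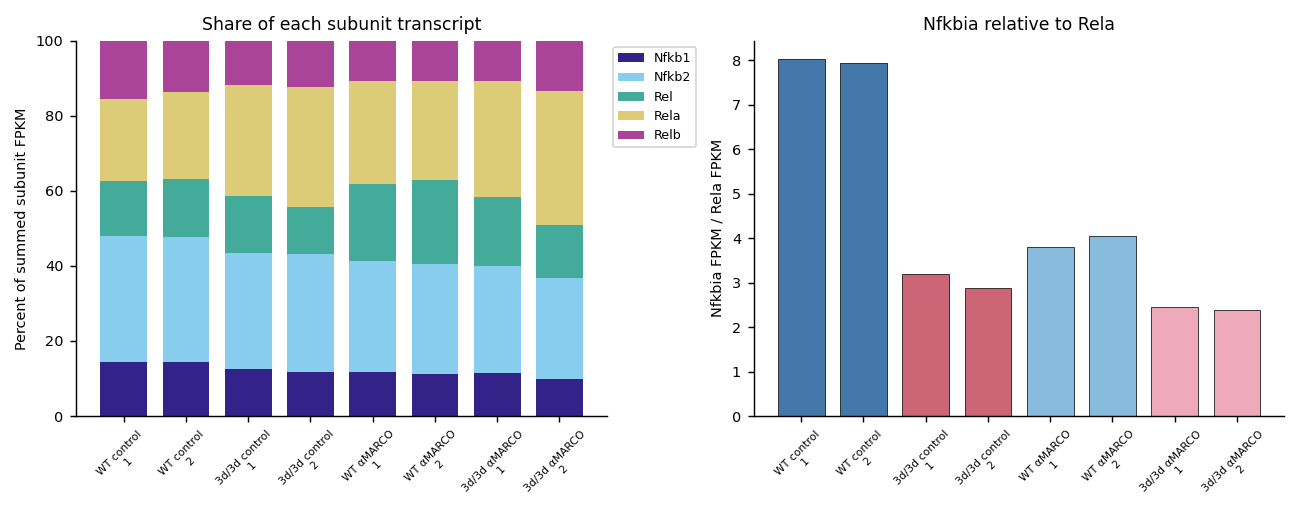
Left, share of each subunit in the summed subunit FPKM (stacked bars, percent) in each of the 8 libraries. Right, ratio of Nfkbia FPKM to Rela FPKM in the same libraries, at 8.04 and 7.94 in WT control and 4.05 or less in all others.

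Markers of other cell types moved with the same comparison. All 10 T cell markers were called higher in WT control TAMs, with a summed level of 106 to 119 CPM in WT and 12.5 to 24.8 CPM in Unc93b1 3d/3d control libraries. Mature dendritic cell markers summed to 1087 and 698 CPM in WT control replicates 1 and 2, against 497 and 458 CPM for Unc93b1 3d/3d, with 3 of 8 called higher and 1 lower. The 1 called lower, Zmynd15, had a mean of 230 CPM in WT and 373 CPM in Unc93b1 3d/3d control TAMs. It made up most of the Unc93b1 3d/3d sum. Of 9 nonclassical monocyte markers 5 were called higher in WT, and their sum was 1493 to 1538 CPM in WT and 467 to 607 CPM in Unc93b1 3d/3d. For natural killer cells 2 of 7 markers were called higher (84.9 to 96.1 CPM against 8.42 to 28.3 CPM). For type 1 conventional dendritic cells 3 of 6 were called higher (508 to 533 CPM against 305 to 313 CPM). For B cells it was 1 of 3 tested (39.0 to 43.6 CPM against 4.92 to 7.34 CPM). That B cell marker, Cd79b, had a mean of 38.9 CPM in WT and 2.58 CPM in Unc93b1 3d/3d control TAMs. Ms4a1 (0.03) and Pax5 (-1.16), the other B cell markers tested, were not called. None of 7 neutrophil markers and none of 3 tumor epithelial markers tested was called, Krt19 and Krt14 being at 0 in both Unc93b1 3d/3d control libraries, and 2 of 9 macrophage markers were called lower in WT. The part of these cells in the difference of the NF-κB genes was not tested. In bulk samples, fewer cells of a type and less RNA per cell cannot be told apart.

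αMARCO was compared with control within WT TAMs to ask what the antibody did to these genes where endosomal TLRs function. The members did not move together: Nfkbia and Relb were called lower with αMARCO, Nfkbie was called higher, and 7 of the 10 were not called. This comparison shares the WT control libraries with the one above. In it 20.7% of 15630 genes were called, 8.91% higher and 11.8% lower. The median log2 fold change was -0.26 over the members and -0.01 over all genes tested.

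Nfkbia was at 286 and 309.8 CPM in the WT αMARCO libraries, below the 549 and 507 CPM of WT control, and fell by 0.82 ± 0.09 on the log2 scale (adjusted p = 0.000239). Both treated libraries lay above all 4 Unc93b1 3d/3d libraries, of which the highest was at 201 CPM. Relb, at 69.8 and 74.1 CPM with αMARCO against 115 and 91.7 CPM in control, fell by 0.51 ± 0.11 (adjusted p = 0.00611). The Relb call did not survive leaving out WT control replicate 1 (-0.35, adjusted p = 0.00612) or WT αMARCO replicate 1 (-0.46, adjusted p = 0.0662), nor a filter of at least 10 counts in every library (-0.50, adjusted p = 0.00663).

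Nfkbie went the other way. It was at 275 and 298 CPM with αMARCO and 179 and 183 CPM in WT control, a log2 fold change of 0.67 ± 0.08, or 1.59-fold (adjusted p = 0.000425). Both αMARCO libraries lay above all 6 others, and the gene had not been called between the genotypes in control TAMs.

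A further 4 members had an adjusted p under 0.05 with a smaller fold change, making 7 in all, against 35.1% of genes at any fold change. Rel was at 258.5 and 300.2 CPM with αMARCO and 208 and 197 CPM in control (0.47 ± 0.09, adjusted p = 0.00386). Rel was called without WT control replicate 1 (0.51) or WT αMARCO replicate 1 (0.58). Nfkbiz was at 780.3 and 811 CPM with αMARCO, the highest values of the 8 libraries, against 529.6 and 672 CPM in control (0.41 ± 0.12, adjusted p = 0.0221). It was called without WT control replicate 2 (0.59), but without WT control replicate 1 it was 0.25 (adjusted p = 0.101), and without WT αMARCO replicate 1 or 2 its adjusted p was 0.072 or 0.108. Nfkb1, at 241 and 241 CPM, lay below its control values (-0.38 ± 0.09, adjusted p = 0.0076), as did Nfkbib at 51.0 and 51.1 CPM (-0.38 ± 0.09, adjusted p = 0.0104). Without WT αMARCO replicate 1 or 2 the adjusted p of Nfkb1 was 0.0644 or 0.0535 and that of Nfkbib 0.0802 or 0.0639.

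The remaining members missed the threshold. Nfkb2 had 163 and 174 CPM with αMARCO (-0.24 ± 0.09, adjusted p = 0.059), Tnfaip3 had 234 and 277 CPM (-0.27 ± 0.10, adjusted p = 0.063) and Rela had 127 and 129 CPM (0.21 ± 0.08, adjusted p = 0.0601). None of the 10 members overlapped between the 2 WT groups, 4 lying higher and 6 lower with αMARCO, and 69.4% of all genes did not overlap either. With all 8 libraries in 1 model no member was called (Nfkbia adjusted p = 0.0588, Nfkbie 0.0919, Relb 0.162). In that model 5 members had an unadjusted p under 0.05, against 20.0% of genes. With 7 libraries the same 3 were called, against 18.3% of genes.

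The marker lists moved in this comparison too. All 10 T cell markers were called lower with αMARCO. Their summed level was 11.0 to 17.4 CPM, against 106 to 119 CPM in control. Also called lower were 4 of 7 natural killer cell markers (6.79 to 14.7 CPM) and 1 of 3 B cell markers (20.1 to 20.5 CPM). That B cell marker, Cd79b, had a mean of 16.4 CPM with αMARCO and 38.9 CPM in control, and made up most of the sums. Ms4a1 (0.87) and Pax5 (1.07), the other B cell markers tested, had positive estimates and were not called. Of 8 mature dendritic cell markers 5 were called lower and 1 higher (504 to 544 CPM against 698 to 1087 CPM in control). The 1 called higher, Zmynd15, had a mean of 448 CPM with αMARCO and 230 CPM in control. It made up most of the sum with αMARCO, so that the sums understate the fall of the other markers. Of 6 type 1 conventional dendritic cell markers 4 were called lower (325 to 333 CPM). Nonclassical monocyte markers were called lower for 5 of 9 and higher for 1 (1263 to 1415 CPM against 1493 to 1538 CPM in control). Nr4a1, the 1 called higher, had a mean of 805 CPM with αMARCO and 529 CPM in control. As it made up most of the sum with αMARCO, these sums understate the fall of the markers called lower. Among those, Cd300e had a mean of 261 CPM with αMARCO and 586 CPM in control. Neutrophil markers were called lower for 2 of 5 tested, although their sum was 377 to 380 CPM against 316 to 339 CPM in control. Most of that sum was Csf3r, which was not called and had a mean of 356 CPM with αMARCO and 270 CPM in control. Tumor epithelial markers were called lower for 2 of 3 tested (30.8 to 32.0 CPM, with Krt19 and Krt14 at 0). Macrophage markers were called lower for 4 of 9 and higher for 1 (8980 to 9424 CPM). The part of these cell types in the changes of Nfkbia, Relb and Nfkbie was not tested.

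In Unc93b1 3d/3d TAMs no member was called between αMARCO and control, and none of 15428 genes was (0.0% called by edgeR), with 744 genes at an unadjusted p under 0.05 and 52 called by DESeq2. The estimates of the members ranged from -0.18 to 0.49. Nfkbiz was at 394 and 335 CPM with αMARCO and 279.5 and 241 CPM in control, both treated libraries lying above both controls, and its log2 fold change was 0.49 ± 0.24 (adjusted p = 0.823). Nfkbie lay at 224 and 221 CPM against 195 and 153.5 CPM, again without overlap (0.36 ± 0.23, adjusted p = 0.823). Nfkbia was at 154 and 183 CPM against 201 and 181 CPM, so that the groups overlapped (-0.18 ± 0.23, adjusted p = 0.859). The groups of 4 members did not overlap, 3 of them higher with αMARCO (Rela, Nfkbie and Nfkbiz) and Nfkb2 lower, and 38.6% of all genes did not overlap.

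Leaving out either treated library changed these counts. Without Unc93b1 3d/3d αMARCO replicate 2, 571 genes were called, 1.59% of those tested being higher, and Nfkbiz was the only member called (0.60 ± 0.14, adjusted p = 0.00381). Without replicate 1 instead, 5500 genes were called, 16.9% of those tested being higher, and Nfkbib was the only member called (0.52 ± 0.14, adjusted p = 0.00302). Nfkbib was the member on which the 2 libraries differed most, with 39.9 CPM in replicate 1 and 71.9 CPM in replicate 2, the lowest and the highest of the 8 libraries. In either of these settings the lone library was assumed to vary like the control libraries.

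**Figure D4:**
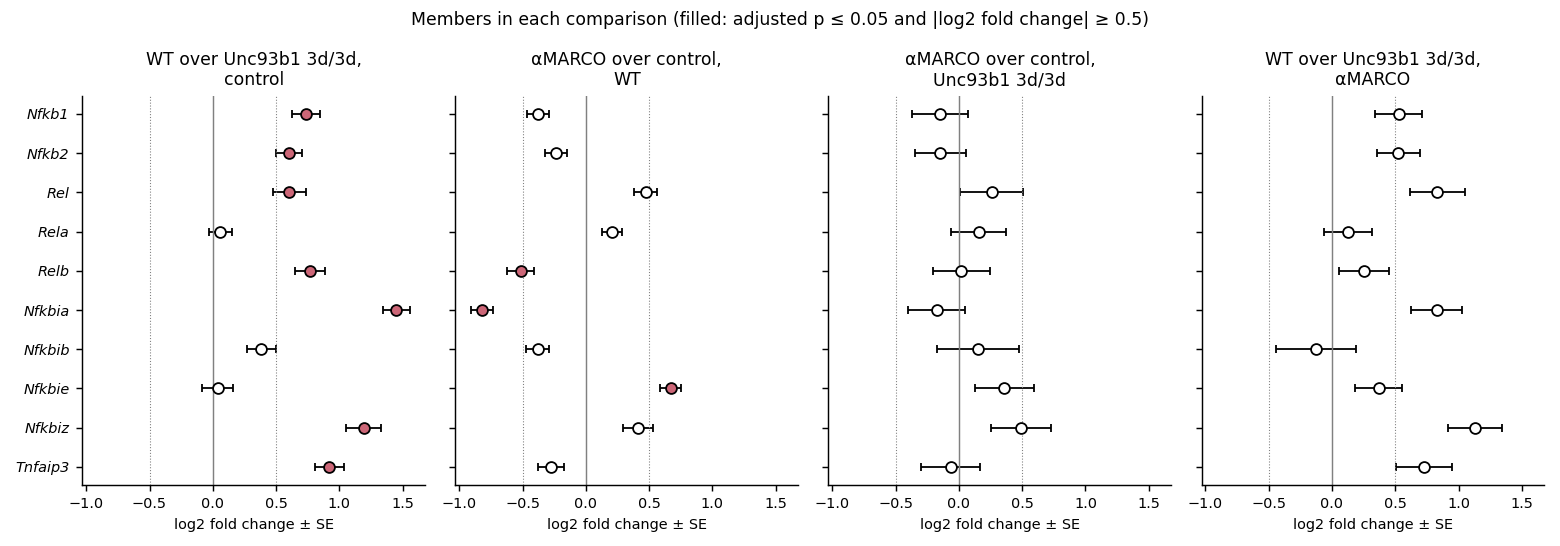
Log2 fold change (point) ± SE (bar) of each member in the 4 comparisons, filled where called and open where not, with dotted lines at -0.5 and 0.5. In control TAMs 7 members are called higher in WT, with αMARCO in WT 3 are called, and in the 2 comparisons that use the Unc93b1 3d/3d αMARCO libraries no point is filled and the bars are wider.

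WT and Unc93b1 3d/3d TAMs were also compared under αMARCO, using 4 libraries of which none entered the control comparison. No member and none of 15722 genes was called by edgeR (0.0%), with 1076 genes at an unadjusted p under 0.05, 195 called by DESeq2 and 6 members at an unadjusted p under 0.05. The WT libraries lay above both Unc93b1 3d/3d libraries for 8 of the 10 members, and 22.1% of all genes did the same. The median log2 fold change was 0.53 over the members and -0.03 over all genes tested.

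Nfkbiz had the largest estimate, with 780.3 and 811 CPM in WT αMARCO against 394 and 335 CPM in Unc93b1 3d/3d αMARCO libraries (1.13 ± 0.21, adjusted p = 0.358). It was called by DESeq2 (adjusted p = 0.00585) and with all 8 libraries in 1 model (adjusted p = 0.0436), which called 108 of 16620 genes. Rel followed at 258.5 and 300.2 CPM against 176 and 139 CPM (0.83 ± 0.22, adjusted p = 0.567) and Nfkbia at 286 and 309.8 CPM against 154 and 183 CPM (0.83 ± 0.20, adjusted p = 0.518). Tnfaip3 had 234 and 277 CPM against 173 and 137 CPM (0.73 ± 0.22, adjusted p = 0.652). The 2 precursor genes were close to each other, Nfkb1 at 0.53 ± 0.18 (adjusted p = 0.697) and Nfkb2 at 0.52 ± 0.17 (adjusted p = 0.693). Nfkbie (0.37 ± 0.18), Relb (0.25 ± 0.20), Rela (0.13 ± 0.19) and Nfkbib (-0.13 ± 0.31) completed the list, the last 2 with overlapping groups.

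Leaving out either Unc93b1 3d/3d αMARCO library left that group with 1 library, so that the WT αMARCO pair alone gave the spread. That pair differed by a median absolute log2 ratio of 0.147, against 0.536 for the Unc93b1 3d/3d αMARCO pair, so these p-values assume a smaller spread than the one measured in the latter. Without replicate 2, Nfkb2, Rel, Nfkbia, Nfkbiz and Tnfaip3 were called higher in WT (log2 fold changes 0.51 to 1.01), against 3.44% of genes called higher. Without replicate 1, the same 5 and Nfkb1 were called higher (0.54 to 1.25), against 20.0% of genes. With 7 libraries in 1 model, Unc93b1 3d/3d αMARCO replicate 2 left out, the same 5 members were called, against 1.91% of genes called higher, with Nfkbia at 0.95 ± 0.12 (adjusted p = 0.000239) and Nfkbiz at 1.02 ± 0.15 (adjusted p = 0.000992). The 5 genes were those called whichever Unc93b1 3d/3d αMARCO library was left out, so their shared direction follows from that choice. Both fits used the same WT αMARCO pair. Among members called in neither fit, Nfkbib was at 0.36 without replicate 2 and -0.49 without replicate 1. In the same order Rela was at 0.27 and -0.0036, Relb at 0.44 and 0.087, and Nfkbie at 0.36 and 0.38. The 2 treated Unc93b1 3d/3d libraries differed from each other across the transcriptome.

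The marker lists were not called in either comparison that used these libraries. In Unc93b1 3d/3d αMARCO libraries the summed levels were 8.76 to 9.04 CPM for T cells, 6.18 to 6.66 CPM for natural killer cells, 7.55 to 8.08 CPM for B cells (Blk at 0), 393 to 489.9 CPM for mature dendritic cells and 191 to 264 CPM for type 1 conventional dendritic cells. They were 830 to 1052 CPM for nonclassical monocytes, 219 to 267 CPM for neutrophils, 69.1 to 70.5 CPM for tumor epithelial cells (Krt14 at 0) and 9156 to 13187 CPM for macrophages. In WT αMARCO libraries the T cell sum was 11.0 to 17.4 CPM and the nonclassical monocyte sum 1263 to 1415 CPM, both above the Unc93b1 3d/3d values. The WT sums also lay above for natural killer cells, B cells, mature and type 1 conventional dendritic cells and neutrophils. For tumor epithelial cells the WT sum lay below (30.8 to 32.0 CPM), and for macrophages the sums overlapped. The part of these cell types in the genotype difference of the members was not tested.

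Whether the antibody acted differently in the 2 genotypes was tested as the difference of the 2 αMARCO effects, WT minus Unc93b1 3d/3d, with all 8 libraries. No member and none of 16620 genes was called (0.0% by edgeR), with 2549 genes at an unadjusted p under 0.05 and 200 called by DESeq2, none of them a member. The smallest member p was that of Nfkbia, which had -0.64 ± 0.22 (adjusted p = 0.318), followed by Relb at -0.53 ± 0.25 (adjusted p = 0.33). The αMARCO estimates of Nfkbia were -0.82 in WT and -0.18 in Unc93b1 3d/3d TAMs, and those of Relb -0.51 and 0.02. For Nfkbiz the difference was -0.08 ± 0.26 (adjusted p = 0.878), its estimate with αMARCO being 0.41 in WT and 0.49 in Unc93b1 3d/3d TAMs. Without Unc93b1 3d/3d αMARCO replicate 1, Nfkbia (-0.76, adjusted p = 0.000845), Relb (-0.70, adjusted p = 0.00362) and Nfkbib (-0.90, adjusted p = 0.000401) were called lower, against 17.9% of genes. Without replicate 2, which stood apart, no member was called, and Nfkbia had -0.53 ± 0.15 (adjusted p = 0.0702).

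The members fell into patterns across the 8 libraries, given here as Pearson's r of log2 CPM without a test, since the libraries form 4 groups that the points share. Nfkb1 and Nfkb2 were the closest pair (r = 0.98), and each had r = 0.97 with Nfkbia. Relb (r = 0.95) and Tnfaip3 (r = 0.92) also tracked Nfkbia. Rel was closest to Nfkbiz (r = 0.95), and both had their highest values in the 2 WT αMARCO libraries. Rela (r = 0.12) and Nfkbie (r = -0.06) did not track Nfkbia. Among the members Rela was closest to Nfkbie (r = 0.75) and Nfkbie to Rel (r = 0.76).

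Outside the family, the genes most like each member by r were found among the 16620 genes. Nfkbia was nearest to Ccl5, a T cell-attracting chemokine (r = 0.995), and Sort1 (0.99). Nfkb1 was nearest to Adgre4 (0.99) and Nxpe1-ps (0.99), and Nfkb2 to Adgre4 (0.98) and Adgre5 (0.98). Adgre4, an adhesion receptor, is also among the nonclassical monocyte markers. Tnfaip3 was nearest to Nedd9 and Rnf144a, Relb to Slc9a3r1 and Kctd5, and Rel to the splicing factors U2af2 and Sf3b1, all with r of 0.97 to 0.99. Nfkbiz was nearest to 9930022D16Rik and Stap1, Nfkbie to Atxn7l2 and Trmt1l, Nfkbib to Gm10146 and Anxa2, and Rela to Neurl2 and Ifitm5. With 8 libraries such values are common: between 5 and 59 genes had r of at least 0.95 with a given member.

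The further genes of the pathway were taken from 5 lists of their known roles. Between the genotypes in control TAMs, 6.58% of all genes tested were called higher in WT and 13.0% in either direction. None of the 2 further IκB genes, Bcl3 and Nfkbid, was called between the genotypes. Of 11 activating kinase genes, Map3k8, which encodes the kinase TPL2 held by p105, was the only one called (0.94 ± 0.12, adjusted p = 0.00115), and the list's median was -0.11. Chuk, Ikbkb and Ikbkg, the genes of the IκB kinase complex, were not called. Of 16 ubiquitin ligase and adaptor genes 3 were called higher in WT: Traf1 (1.30 ± 0.16, adjusted p = 0.00268), Birc2 (0.66 ± 0.12, adjusted p = 0.00741) and Birc3 (0.50 ± 0.10, adjusted p = 0.00902), the last 2 encoding the cIAP ligases. The Birc3 call was lost in 6 of 11 alternative settings with the fold threshold kept, among them leaving out WT control replicate 1 (0.43) or Unc93b1 3d/3d control replicate 2 (0.45). Of 12 genes for other brakes, 2 partners of A20 were called higher, Tnip1 (1.001 ± 0.13, adjusted p = 0.0021) and Tnip3 (0.59 ± 0.15, adjusted p = 0.0242). Without Unc93b1 3d/3d control replicate 1, Tnip3 was not called (0.46, adjusted p = 0.117).

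Of 32 NF-κB target genes tested, 16 were called higher and 2 lower in WT control TAMs, with a median log2 fold change of 0.57. Over all genes tested, 6.58% were called higher and 13.0% in either direction. The largest change called was that of Il12b, which encodes the p40 chain of IL-12, at 26.1 and 23.2 CPM in WT and 0.82 and 0.71 CPM in Unc93b1 3d/3d libraries (4.99 ± 0.23, adjusted p = 3.36e-06). Ccl5 followed, at 128 and 122 CPM against 25.7 and 16.9 CPM (2.54 ± 0.19, adjusted p = 0.000382). For both genes the libraries of the 2 genotypes lay far apart. Il6 (1.42 ± 0.31, adjusted p = 0.0143), Mmp9 (1.40 ± 0.22, adjusted p = 0.00358) and Cxcl1 (1.19 ± 0.19, adjusted p = 0.00326) completed the 5 largest called. Of these, Il6 was not called without Unc93b1 3d/3d control replicate 1 (1.25). Ccl22, named after its values were seen and also a mature dendritic cell marker, had a larger estimate than Ccl5 but was not called. Its means were 131 CPM in WT and 17.5 CPM in Unc93b1 3d/3d control TAMs (2.89 ± 0.57, adjusted p = 0.0734). The 2 called lower, named after their values were seen, were Bcl2l1, an anti-apoptotic gene (-0.64 ± 0.09), and Ccl2, a monocyte chemokine (-0.52 ± 0.13). The Ccl2 call was lost in 4 of 11 settings, among them leaving out Unc93b1 3d/3d control replicate 2 (-0.33, adjusted p = 0.0881) or WT control replicate 2 (-0.45).

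With αMARCO in WT TAMs, 2 of 32 target genes tested were called higher and 8 lower, with a median of -0.08. Of all genes tested in this comparison, 8.91% were called higher and 11.8% lower. Il12b fell to 2.23 and 2.39 CPM (-3.40 ± 0.17, adjusted p = 1.93e-05) and Ccl5 to 42.6 and 45.4 CPM (-1.50 ± 0.08, adjusted p = 1.93e-05). Il6 (-1.10 ± 0.26), Csf1 (-1.08 ± 0.14) and Vcam1 (-0.96 ± 0.10) fell as well, although Il6 was not called without WT αMARCO replicate 1 (-0.97, adjusted p = 0.0974). Ccl22, a dendritic cell and macrophage chemokine named after its values were seen, was not called in spite of its larger estimate (-3.96 ± 0.77, adjusted p = 0.0662), its WT control libraries lying at 183 and 79.1 CPM and its WT αMARCO libraries at 5.58 and 10.9 CPM. The 2 called higher, named after their values were seen, were Tnfsf9 (0.62 ± 0.08) and Cxcl16 (0.50 ± 0.09). The Cxcl16 call was lost in 5 of 11 settings, among them leaving out WT control replicate 2 (0.47) or WT αMARCO replicate 2 (0.44). Of 16 ubiquitin ligase and adaptor genes 2 were called, both lower: Traf1 (-0.87 ± 0.12) and Birc2 (-0.62 ± 0.10). Of 12 genes for other brakes 2 were called, both higher: Tnip3 (0.85 ± 0.10) and Zc3h12a, the gene of the RNase Regnase-1 (0.62 ± 0.07). None of 11 kinase genes was called, and 20.7% of all genes tested were called in either direction. Nfkbid, which encodes the nuclear IκBNS, rose from 175 and 162 CPM to 249 and 264 CPM (0.62 ± 0.08, adjusted p = 0.000653). In Unc93b1 3d/3d TAMs Nfkbid was at 134 and 143 CPM in control and 364 and 376 CPM with αMARCO, without overlap but not called (1.42 ± 0.22, adjusted p = 0.823).

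**Figure D5:**
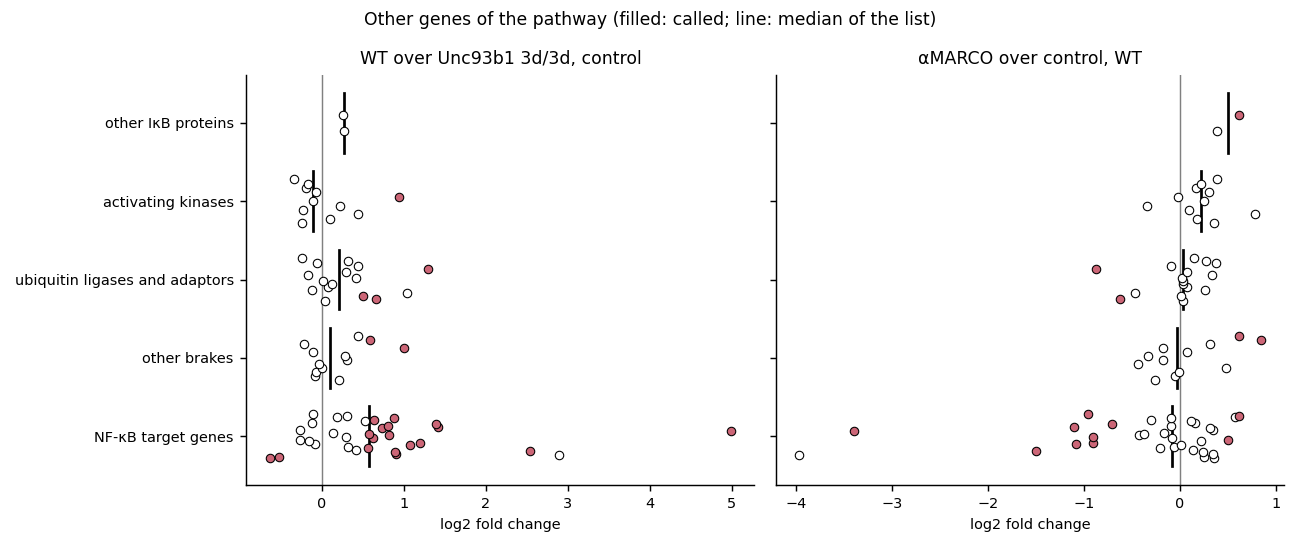
Log2 fold change of each tested gene of the 5 further pathway lists (points, filled where called, with the list median as a line) for WT over Unc93b1 3d/3d in control TAMs (left) and αMARCO over control in WT TAMs (right). Il12b lies at 4.99 on the left and -3.40 on the right, and most kinase and adaptor genes lie between -0.5 and 0.5 in both.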

How the data were processed

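Poly-A mRNA libraries were sequenced on an Illumina NovaSeq. The authors used fastp for read cleaning, HISAT2 2.0.5 for alignment, featureCounts 1.5.0 for gene counts and DESeq2 1.40.2 for differential expression, on GRCm38 per the submitters' processing notes. The strand setting is not given in the sources used here. The deposited tables hold raw counts and FPKM for each library, and these 2 units were used. Their 12 columns of normalized values and the authors' own fold changes and p-values were not. Counts from 3 tables were joined over 26939 genes, and 95230 counts present in more than 1 table did not differ. Single-cell data were not analysed here.

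Groups followed the labels. Counts of 4 libraries per comparison, or 8 for the difference of effects, were tested with edgeR 4.0.16 (quasi-likelihood, TMM, filterByExpr, robust) in R 4.3.3, after a check on simulated data. Benjamini-Hochberg adjustment covered all genes tested, and every adjusted p is from this test unless DESeq2 1.42.0 is named. CPM used TMM factors over the 8 libraries, with a prior count of 2 for log2 values. SE was the log2 fold change over the square root of F. Library totals were 15182618 to 26411936 reads. With 2 libraries per group, p-values measure the spread between these libraries, which may be technical, and floors cover counting error only. The members and gene lists were chosen with earlier results of these data known. Named pathway genes were, for each list, at most 5 called genes with the largest changes and groups that do not overlap; exceptions are marked. Ehd1 and Itgam were left out of the lists because their symbols matched no gene or more than 1. Promoters were from RefSeq.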

Additional observations from a re-analysis of the deposited data

How the results depend on the processing

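Every member had at least 862 counts in each library, and each group had 2 libraries. With all 8 libraries in 1 model, genes and members called were 364 and 4 (genotype, control), 164 and 0 (αMARCO, WT), 1 and 0 (αMARCO, Unc93b1 3d/3d) and 108 and 1 (genotype, αMARCO). With 7 libraries, an alternative chosen after seeing the data, the last 2 comparisons gave 376 and 1, and 687 and 5. DESeq2 called 52, 195 (1 member) and 200 genes in αMARCO in Unc93b1 3d/3d, genotype under αMARCO and the difference of effects, and with no filter the counts were 174, 107 and 152. Without a fold threshold αMARCO in WT gave 5487 genes and 7 members; with a threshold of 1 it gave 1366 and 0, and genotype in control gave 951 and 2.

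Leaving out 1 library at a time gave 1940 to 3951 genes and 3 to 4 members for αMARCO in WT, 1 to 5500 and 0 to 1 for αMARCO in Unc93b1 3d/3d, 17 to 6366 and 0 to 6 for genotype under αMARCO, and 0 to 6440 and 0 to 3 for the difference. Signs turned in these ranges for Nfkbie in control (-0.13 to 0.23), for Relb (-0.18 to 0.20), Tnfaip3 (-0.24 to 0.093) and Nfkbib (-0.34 to 0.52) with αMARCO in Unc93b1 3d/3d, for Rela (-0.0036 to 0.27) and Nfkbib (-0.49 to 0.36) by genotype under αMARCO, and for Rela (-0.084 to 0.18) and Nfkbiz (-0.25 to 0.10) in the difference. None of these members was called in that comparison as reported. With αMARCO in Unc93b1 3d/3d, Relb also turned to -0.00020 with DESeq2 size factors and -0.014 with at least 10 counts in every library. With 7 libraries Relb (-0.18), Rela (-0.00028), Nfkbib (-0.35) and Tnfaip3 (0.087) turned there, and Nfkbib (0.36) turned by genotype under αMARCO. The cause was not tested.

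The replicate numbers are not stated to mark a shared animal or day, and same-numbered deviations correlated at -0.077 to 0.135, so they were not taken as pairs. With a replicate block 5 genes were called with αMARCO in Unc93b1 3d/3d and 97 by genotype under αMARCO, and no member's call changed. By Spearman's rho 8 of the 20 genes most like a member remained among the nearest. A search of the proteins for a degradation motif was not run.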
